A study of Bos taurus with 40 samples.

Results

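The genes described here are those listed for skeletal muscle of both heifers and bulls but not for bull liver, and abundant in muscle. A gene was a member if it was listed in the 10 heifer muscle tables and, once the last 1359 rows of each bull muscle file had been dropped, in the 10 bull muscle tables, was absent from the 10 bull liver tables, and had a mean of at least 100 CPM (reads of a gene scaled to a library of 1e6 reads) over the heifers. Of 8531 genes listed in any table, 914 were listed for both muscles and not for bull liver, and 207 of these passed the limit. The level and the listing therefore chose the genes, and both are given as descriptions only. The files hold Ensembl gene identifiers without symbols, and no identifier of the 207 could be matched to a name, so that the genes are given by identifier and their functions are not stated. For the same reason the tissue label could not be checked against named muscle markers.

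Residual feed intake (RFI) is the difference between the feed an animal eats and the feed predicted from its size and growth, and an animal of low RFI is the more feed efficient. The study measured RNA from liver and M. longissimus biopsies of purebred Simmental heifers and bulls that ranked at the high or low end for RFI within their sex. All groups shared the breed and the feeding trial, for which animals were housed at about 15 months of age. The muscle groups used here are high RFI heifers (n = 5), low RFI heifers (n = 5), high RFI bulls (n = 4) and low RFI bulls (n = 2), each sample being a separate animal by its tag. The remaining 4 bull muscle samples (M12, M6, 2712 and M74) were left out of every comparison by the rule, the design taking them to carry a liver profile. Their levels of these genes are given below. Depth, read from the size of the smallest step in each file, was 10706431 to 30300667 reads in the 10 heifers and 14504872 to 27930745 reads in the 6 bulls.

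Skeletal muscle is built from long fibres packed with contractile filaments. Transcripts for those filaments, for the release and uptake of calcium, and for the supply of energy are typically abundant in this tissue and scarce in liver. Fibres are broadly slow and oxidative or fast and glycolytic, with differing forms of the contractile proteins, and a biopsy samples a mixture of them. In bulk tissue, fewer cells of a type and less RNA per cell cannot be told apart.

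The 207 genes took from 16.4% to 24.7% of the muscle reads in the 16 animals. They held 20.9% ± 2.05 (SD, n = 10) of the reads in heifers and 19.7% ± 1.69 (SD, n = 6) in bulls. Between heifers the share ran from 16.4% in low RFI animal M70, through a median of 20.8%, to 24.7% in high RFI animal 2628. Among the bulls it ran from 16.5% in high RFI animal 2641, through a median of 20.6%, to 20.7%. High RFI heifers held 21.9% ± 1.70 and low RFI heifers 19.8% ± 1.99 (SD, n = 5 each), and these groups overlapped. High RFI bulls held 19.6% ± 2.09 (SD, n = 4) and low RFI bulls 19.9% ± 1.02 (SD, n = 2).

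The animals with the lowest shares also had the highest share of mitochondrial reads. The study pairs identifiers with symbols for 5 mitochondrially encoded genes (*COX1*, *ND5*, *ND6*, *cytb* and *COX3*, subunits of the electron transport chain), which it selected on these heifers and of which none is a member. These 5 genes took 18.2% of reads in heifer M70 and 20.3% in bull 2641, against 2.72% in heifer 2628. When the 5 were set aside, the 207 genes held 20.1% of the remaining reads in M70 and 20.7% in 2641, and the 16 animals lay between 20.1% and 25.4%. Heifers then averaged 22.2% ± 1.43 (SD, n = 10) and bulls 21.5% ± 0.659 (SD, n = 6).

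**Figure D1:**
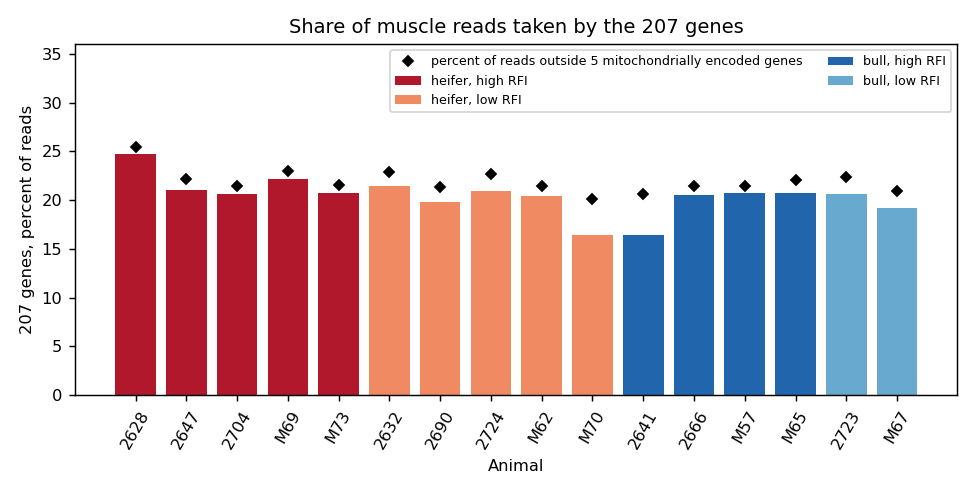
Percent of all reads taken by the 207 genes in each of 16 muscle samples (bars, coloured by sex and RFI group), and percent of the reads outside 5 mitochondrially encoded genes (diamonds). Heifer M70 and bull 2641 have the lowest bars, 16.4% and 16.5%, while their diamonds lie at 20.1% and 20.7%.

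Levels fell away steeply from the first gene to the last. CPM counts reads and not transcripts, so a long transcript ranks above a short one of equal number, and ranks are ranks of read share. In heifers 12 members averaged 5000 CPM or more, 27 lay between 1000 and 5000 CPM, 20 between 500 and 1000 CPM, 62 between 200 and 500 CPM and 86 between 100 and 200 CPM. The first 20 members held 64.7% of the members' reads, and all 20 were also the first 20 in bulls. Every one of the 207 was read at 12.3 CPM or more in each of the 16 animals, and 111 were at 100 CPM or more in all of them. Mean levels in bulls lay within 2-fold of those in heifers for all 207 genes.

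The most abundant member was ENSBTAG00000021218, with a level of 13839 ± 3485 CPM (SD, n = 10) in heifers and 12798 ± 987 CPM (SD, n = 6) in bulls. Its lowest heifer value was 9068 CPM (animal 2628), the median 13701 CPM and the highest 21353 CPM (animal 2632). The bulls lay between 11308 and 14207 CPM, inside the range of the heifers. Next came ENSBTAG00000006541, at 11629 ± 2494 CPM in heifers and 9071 ± 2164 CPM in bulls, and ENSBTAG00000001032, at 11440 ± 2344 CPM and 9063 ± 1645 CPM. In heifers the means of neighbours among these genes differed by less than 1 SD. At the other end, the limit separated like genes: the last members, ENSBTAG00000015181 and ENSBTAG00000016194, averaged 100.2 and 100.3 CPM in heifers, and the nearest gene outside averaged 98.9 CPM.

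**Figure D2:**
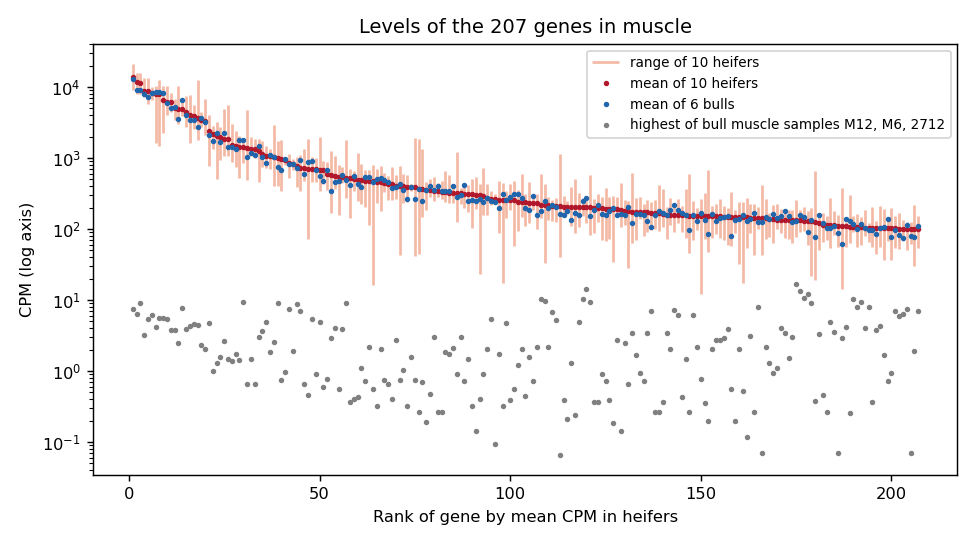
Level of each of the 207 genes in CPM (log axis) against its rank in heifers, with the mean of 10 heifers and their range, the mean of 6 bulls, and the highest value in bull muscle samples M12, M6 and 2712. Heifer means run from 13839 to 100.2 CPM with bull means, the lowest at 61.6 CPM, within 2-fold of them, and the 3 samples lie far below at 17.0 CPM or less.

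In 3 of the 4 bull muscle samples left out, these genes were nearly absent. They took 0.0544% of reads in M12 (high RFI), 0.0453% in M6 and 0.0427% in 2712 (both low RFI), with median levels of 1.53, 1.30 and 1.10 CPM. The highest level of any member in the 3 samples was 17.0 CPM, and 141 of the 207 were below 1% of the mean of the 6 bulls in all 3. The fourth, M74 (low RFI), held 9.42% of reads in these genes, with a median level of 118 CPM. Its members lay at a median of 49.8% of the mean of the 6 bulls. By the level of these genes, the samples carrying the muscle label were 16 with the full level, 1 with an intermediate level and 3 with almost none. The rule chose genes not listed for bull liver, and it left these 4 samples out. Low levels in samples taken to carry a liver profile therefore follow in part from the choice, and this division is a description only.

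Heifer liver, which the rule did not use, listed 24 of the 207 genes. The share of other muscle genes listed for heifer liver was not taken, so this count is a description only. Across the tables, every listed gene reached 10 CPM in at least 5 of 10 samples, so that a few samples with high values could bring a gene into a list. In 3 heifer liver samples there were high levels of the 24 genes, which took 5.44% of reads in 2728, 9.62% in L16 and 12.5% in L58, against 0.0113% to 0.0727% in the other 7. For ENSBTAG00000021218 the levels in those 3 were 5752, 15521 and 13690 CPM, while the other 7 livers ran from 2.38 to 34.2 CPM with a median of 13.0 CPM.

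The 24 genes were divided by their level in those 7 livers as a percentage of the heifer muscle mean. For 16 of them, all among the first 30 members by level, the median of the 7 livers was under 1% of the heifer muscle mean. For the other 8, with heifer muscle means of 104 to 520 CPM, it was between 1.65% and 23.9%. The division followed the muscle level, which was 1423 to 13839 CPM for the 16. The liver medians themselves overlapped, at 5.46 to 13.4 CPM for the 16 and 8.07 to 31.0 CPM for the 8. The highest proportion belonged to ENSBTAG00000003548, at a median of 31.0 CPM in the 7 livers and a mean of 129 CPM in heifer muscle. The same gene was at 9.35 to 12.3 CPM in M12, M6 and 2712.

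Individual animals differed in these genes, by the median, slightly more than in other abundant ones. Spread was taken as the SD between animals of log2(CPM + 1) after trimmed mean of M values (TMM) scaling, which removes overall differences between libraries. The median SD of the 207 genes was 0.47 over the 10 heifers and 0.33 over the 6 bulls. For the 649 genes as abundant in heifer muscle but listed for bull liver too, it was 0.43 and 0.28. An SD above 1 was seen for 14 members in heifers and 7 in bulls, or 6.76% and 3.38% of them, beside 5.23% and 1.55% of all 5358 genes listed for both muscles. The order of members by SD was partly shared between heifers and bulls (Spearman's rho = 0.30 across the 207 genes, which are not independent replicates), beside 0.48 across all genes.

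High RFI heifer 2628 stood apart from the other heifers. The root mean square distance of the 207 genes from the heifer median was 1.35 on the log2 scale in 2628, against 0.32 to 0.72 in the other 9. It gave the highest value of the 10 heifers for 77 members and the lowest for 47, that is an extreme value for 59.9% of members beside 66.7% of all genes, so the distance was not particular to the members. Of the 207, 35 lay more than 2-fold outside the range of the other heifers, or 16.9% beside 11.2% of all genes. ENSBTAG00000031217, for example, was at 1920 CPM in 2628 and at 41.6 to 452 CPM in the other 9. Without 2628 the median SD of members was 0.39, beside 0.35 for the 649 genes as abundant, and 8 members (3.86%) had an SD above 1, beside 1.85% of the 649 and 1.38% of all genes. The depth of this sample was 14667019 reads, and among the heifers only M62, at 10706431 reads, was lower.

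Among bulls, high RFI animal 2641 was the farthest from the others, at 0.71 against 0.27 to 0.46. Its value was the highest of the 6 for 70 members and the lowest for 53, that is 59.4% of members beside 66.7% of all genes. Both 2628 and 2641 were in a high RFI group, and counts that moved by more than 1.5 times without them, or without any other animal, are given beside the comparison.

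**Figure D3:**
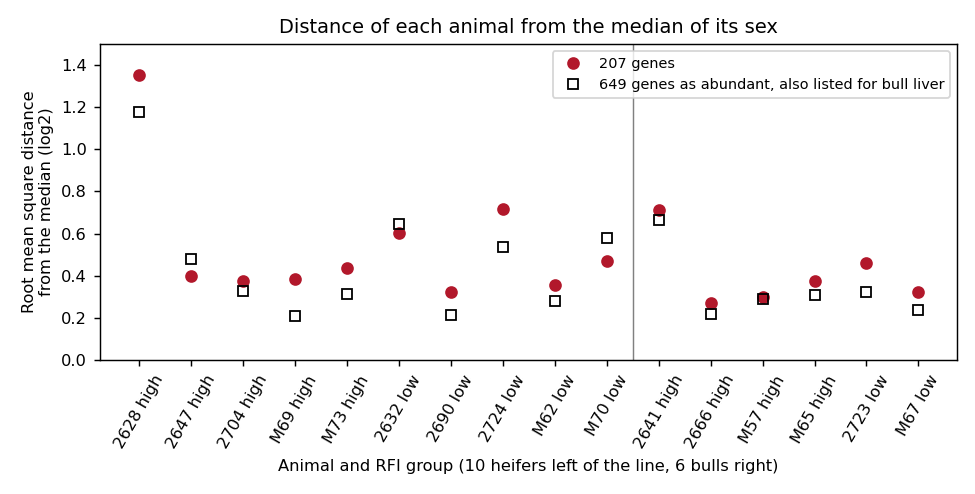
Root mean square log2 distance of each animal from the median of its sex, over the 207 genes (filled circles) and over 649 genes as abundant but also listed for bull liver (open squares). Heifer 2628 (1.35 and 1.18) and bull 2641 (0.71 and 0.67) are the farthest in each sex for both sets of genes.

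Most pairs of members did not rise and fall together between animals. Pearson's r between the log2 levels of 2 members, over the 21321 pairs, had a median of 0.16 in the 10 heifers and 0.04 in the 6 bulls. For the 649 genes as abundant the medians were 0.10 and 0.06. Values of r from one animal share its library, its depth and its scaling, and with 6 to 10 animals high values arise often, so that they are descriptions without a test. An r of at least 0.9 was found for 1.39% of pairs in the 9 heifers without 2628 and for 2.20% in the bulls. The shares were 2.01% and 2.93% for the 649 genes as abundant and 1.30% and 3.24% for all genes, so that such pairs were not more frequent among members than among the 649. Of the 297 such pairs in heifers, 37 (12.5%) were also at 0.9 or above in bulls, which is 7.91% of the 468 such pairs in bulls. The share of pairs recurring in both sexes was not taken for other genes. Whether such pairs, and the sets they form, are particular to the members was therefore not tested.

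The 37 pairs joined 35 members into 10 sets, the largest of 13 genes and the next of 4, the sets having been chosen on these values. The 13 genes moved together over a wide range. Their pairwise r had a median of 0.92 in the 9 heifers and 0.89 in the 6 bulls, with lowest values of 0.70 and 0.63. The most abundant of them was ENSBTAG00000006907, the eighth member by level, at 7850 ± 4279 CPM (SD, n = 10) in heifers and 8605 ± 4260 CPM (SD, n = 6) in bulls. It was at 1489, 6051, 10924, 12615 and 12200.4 CPM in high RFI heifers 2628, 2647, 2704, M69 and M73, and at 3561, 7606, 2168, 11179 and 10704 CPM in low RFI heifers 2632, 2690, 2724, M62 and M70. In bulls it was at 2345, 12783, 9851 and 4717 CPM in high RFI animals 2641, 2666, M57 and M65, and at 12735 and 9198 CPM in low RFI animals 2723 and M67. Low and high values therefore occurred in both RFI groups of heifers, and the RFI groups overlapped in both sexes.

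The widest range belonged to ENSBTAG00000006733, from 16.1 CPM in heifer 2628 to 941 CPM in bull 2723, a difference of 58.5-fold. The narrowest of the 13, ENSBTAG00000014143, ran from 71.4 to 283 CPM, or 3.96-fold. Averaged over the 13 genes, 2628 lay 2.20 and heifer 2724 lay 1.72 below the mean of the 16 animals on the log2 scale (mean deviations of -2.20 and -1.72), followed by bull 2641 at -1.10. At the other end were bull 2723 at 1.08 and heifer M70 at 0.91. Animal 2641, with 20.3% of reads in the 5 mitochondrially encoded genes, and M70, with 18.2%, thus lay at opposite ends of this order, and the part of mitochondrial reads in it was not tested.

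The set of 4 held 2 of the most abundant members, ENSBTAG00000006541 and ENSBTAG00000001032, with a median pairwise r of 0.91 in the 9 heifers and 0.90 in the 6 bulls. Its range was narrow, at most 2.38-fold between the lowest and the highest of the 16 animals. The set was highest in heifers 2632 (0.73), 2724 (0.59) and 2628 (0.43), the heifers in which the 13 genes were lowest, and lowest in bull 2723 (-0.59), where the 13 were highest among bulls. Bull 2641, the third lowest of the 16 animals for the 13 genes, was not high for the set of 4 (-0.19). Of the 194 members outside the set of 13, 10 had an r of -0.7 or below with the mean of the 13 in both the 9 heifers and the 6 bulls, and 6 had an r of 0.7 or above in both. Taken singly, -0.7 or below was reached by 33 of the 194 in heifers and by 50 in bulls, and 0.7 or above by 10 and 16. The shares of other genes were not taken, so these counts are descriptions without a test. The most abundant of the members at -0.7 or below in both was ENSBTAG00000020080 (r = -0.86 and -0.88), at 8335 ± 1213 CPM in heifers.

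**Figure D4:**
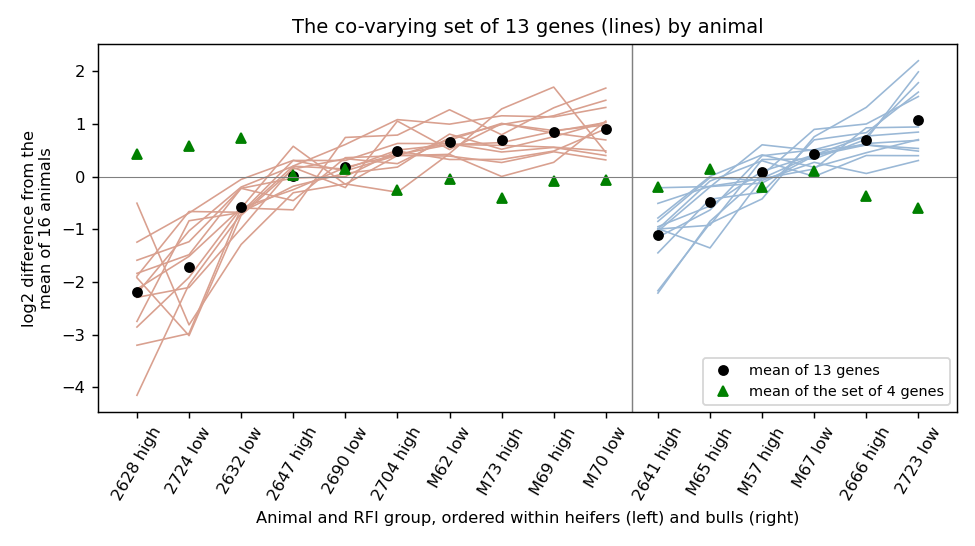
Difference of each animal from the mean of 16 animals, in log2 units, for the 13 co-varying genes (lines), their mean (circles) and the mean of the set of 4 (triangles), with animals ordered within sex by the mean of the 13. The mean of the 13 runs from -2.20 in heifer 2628 to 0.91 in M70 and from -1.10 in bull 2641 to 1.08 in 2723, with high and low RFI animals interspersed.

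The comparison of low with high RFI asked whether feed efficiency went with the level of these genes. In heifers no member passed limma's test at an adjusted p of 0.1, and neither did any of the 5547 genes tested (0%). With edgeR, over more genes and at the same adjusted threshold, the study called the 5 mitochondrially encoded genes in heifer muscle, none of them a member. At an unadjusted p under 0.05 there were 12 members (5.80%), beside 1.64% of all genes. On deposited CPM these were 13 members (6.28%) beside 5.39% of all genes, and without low RFI heifer 2724 there were 6 members (2.90%) beside 1.24%. The median log2 difference, low minus high, was 0.14 for members and 0.01 for all genes. The difference was positive for 137 of the 207, beside 51.4% of all genes. That direction depended on the scaling: on deposited CPM the medians were -0.12 and -0.24, and 60 members were positive, beside 13.4% of all genes. On both scales the median of members lay above that of all genes. Without 2628, 19 members (9.18%) and 4.94% of all genes had an unadjusted p under 0.05, again with none past the threshold. The RFI groups of deposited CPM did not overlap for 5 members, each lower in low RFI heifers (2.42%), beside 1.91% of all genes, of which 104 of 106 were lower too.

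The smallest p among members with a higher level in low RFI heifers was that of ENSBTAG00000010610. It was at 179, 262, 384, 339 and 173 CPM in the 5 high RFI heifers and at 296, 365, 373, 416 and 345 CPM in the 5 low RFI heifers. The groups overlapped on this scale, and after TMM scaling the log2 difference was 0.75 ± 0.24 (SE; limma adjusted p = 0.999; exact two-sided permutation p = 0.0079). ENSBTAG00000007211 followed, at 309 ± 72.1 CPM in high and 402 ± 49.0 CPM in those of low RFI (SD over 5 animals each).

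Of the members with a lower level in low RFI heifers, ENSBTAG00000024929 had the smallest p. Its values were 821, 627, 497, 581 and 577 CPM in high RFI heifers and 346, 318, 390.0, 441 and 222 CPM in low RFI heifers, without overlap on this scale. After TMM scaling the log2 difference was -0.61 ± 0.23 (SE; limma adjusted p = 0.999; exact two-sided permutation p = 0.024). Groups without overlap would give p = 0.0079 in this exact test, so these overlapped after scaling. In bulls the same gene was at 400 ± 61.9 CPM (SD, n = 4) in high and 364 ± 52.0 CPM (SD, n = 2) in low RFI animals, which overlapped. ENSBTAG00000011869 was at 624 ± 724 CPM in high and 103 ± 77.3 CPM in low RFI heifers, the former mean resting on 1861 CPM in 2628. An exact test of 5 against 5 animals can give no p below 0.0079, and these p-values are not adjusted for the choice among 207 genes.

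In bulls 4 high RFI animals were compared with 2 of low RFI, for which the smallest exact p possible is 0.067. No member passed limma's adjusted threshold, and none of the 5963 genes tested did (0%). There were 9 members (4.35%) at an unadjusted p under 0.05, beside 2.06% of all genes. This count rested on single animals and on the scaling: it was 1 (0.483%, beside 0.892% of all genes) without low RFI bull 2723, 3 (1.45%, beside 0.741%) without high RFI bull M65, and 4 (1.93%, beside 1.46%) on deposited CPM. Without high RFI bull 2666 it was 11 (5.31%), below the 7.12% of all genes. The median difference was 0.02 for members and 0.00 for all genes. Groups of deposited CPM did not overlap for 15 members (7.25%), beside 11.8% of all genes.

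Members with the smallest p and a higher level in low RFI bulls were ENSBTAG00000002574 and ENSBTAG00000031217. The former was at 151, 293, 282 and 164 CPM in the 4 high RFI bulls and at 659 and 322 CPM in the 2 of low RFI, a log2 difference of 1.16 ± 0.34 (SE; limma adjusted p = 0.884; exact permutation p = 0.067). Its heifer values went the other way, at 326 ± 143 CPM in high and 180 ± 93.7 CPM in low RFI animals (SD, n = 5 each). With a lower level in low RFI bulls, ENSBTAG00000031788 was at 118, 223, 176 and 177 CPM in high and at 119 and 56.8 CPM in low RFI animals, and ENSBTAG00000003275 at 149, 159, 150.4 and 162 CPM and at 104 and 100.2 CPM. On deposited CPM the values overlapped for ENSBTAG00000031788 and not for ENSBTAG00000003275. Both had an exact permutation p of 0.067, the smallest possible, so neither overlapped after TMM scaling.

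The sign of the RFI difference was shared between the sexes for 92 of the 207 members (44.4%), beside 54.1% of all 5358 genes, from different animals. In the interaction of RFI with sex no member and no gene (0%) passed the adjusted threshold, and 11 members (5.31%) beside 0.821% of all genes had an unadjusted p under 0.05. Without heifer 2628 these were 22 members (10.6%) and 5.69% of all genes, without bull 2723 they were 3 members (1.45%) and 0.336%, and without bull 2641 they were 7 members (3.38%) and 0.523%, each with none past the threshold. ENSBTAG00000003275 had the smallest p, with an interaction of -1.14 ± 0.32 (SE, log2; limma adjusted p = 1). With heifers and bulls fitted together, no member and none of the 5358 genes (0%) passed, while 11 members (5.31%) and 3.28% of all genes had an unadjusted p under 0.05. On deposited CPM the 11 members stood beside 11.2% of all genes. The number of members was 6 (2.90%, beside 2.86% of all genes) without heifer 2724 and 17 (8.21%, beside 2.95%) without bull 2723. It was 7 (3.38%) without heifer 2690, bull 2666 or bull M67, beside 2.37%, 3.08% and 1.85% of all genes.

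**Figure D5:**
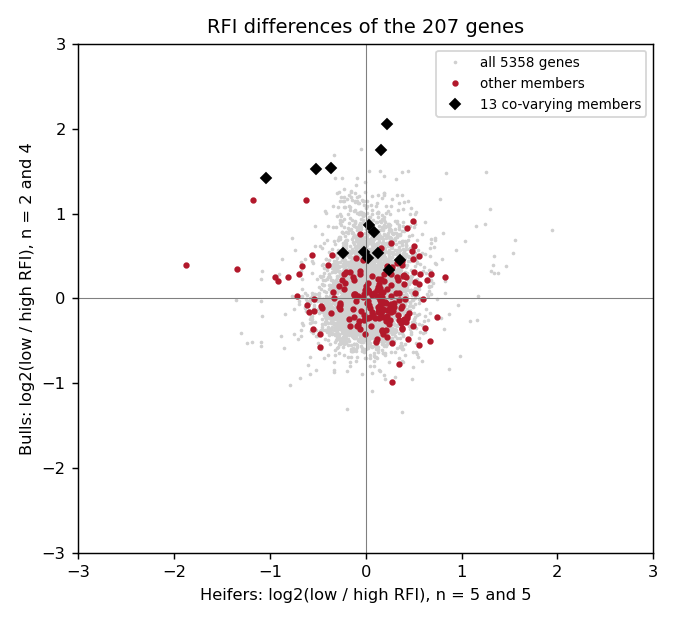
Log2 ratio of low to high RFI for each gene in heifers (n = 5 and 5, horizontal) and in bulls (n = 2 and 4, vertical), for all 5358 genes (grey), the 13 co-varying members (black diamonds) and the other members (red). Members scatter around 0 in both directions, 92 of the 207 having the same sign in both sexes, and none passed the adjusted threshold in either.

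Bulls and heifers were then compared over both RFI groups. Sex cannot be told apart from anything else that differed between the heifers and the bulls, and the rule used the heifer mean, which favours genes near the limit that were high in heifers. No member passed the adjusted threshold, beside 7 (0.131%) of the 5358 genes tested. At an unadjusted p under 0.05 there were 15 members (7.25%), beside 4.11% of all genes, and without bull 2666 there were 9 (4.35%), beside 2.61%. The median difference, bull minus heifer, was -0.05 for members and 0.03 for all genes, and for no member were the deposited values of bulls and heifers apart (0.056% of all genes).

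ENSBTAG00000005259 had the smallest p. It was at 58.3 to 330 CPM in the 10 heifers, with a median of 139 CPM, and at 34.2 to 119 CPM in the 6 bulls, with a median of 70.2 CPM. The log2 difference was -0.91 ± 0.27 (SE; limma adjusted p = 0.890; exact two-sided permutation p = 0.0032). ENSBTAG00000018671 was also lower in bulls, at 129 ± 22.5 CPM against 171 ± 46.4 CPM in heifers. Higher in bulls were ENSBTAG00000020219, at 178 ± 23.6 CPM against 135 ± 37.9 CPM, and ENSBTAG00000007147, at 217 ± 47.6 CPM against 158 ± 31.2 CPM (SD, n = 6 and 10). The groups overlapped for each of these 4 genes, and none passed the adjusted test.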

How the data were processed

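The series holds 40 samples, of which 16 muscle samples entered the comparisons. The authors aligned reads with STAR to bovine build UMD3.1, counted them per gene with HTSeq, and tested them with edgeR. They deposited CPM per gene, relative to library size, and every gene in a deposited table reached 10 CPM in at least 5 samples. The bull muscle files hold other rows too: their last 1359 repeat liver values of 1 bull and were dropped, and each deposited column was read as CPM before them. One heifer liver value carried a stray letter, which was removed.

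The members, lists and tests were chosen with earlier results of these data known. CPM were scaled by TMM (trims of 30% and 5%, own code), a pseudocount of 1 CPM was added and limma (version 3.58.1, under R 4.3.3; empirical Bayes with trend) was run on the log2 values, with Benjamini-Hochberg adjustment over all genes above 1 CPM in at least 5 samples and a threshold of 0.1. Fold changes are on the log2(CPM + 1) scale, which understates low genes. Both-sex fits held sex as a term. Exact permutation tests were two-sided, on TMM-scaled log2 values. Scripts were tested on simulated data. P-values measure the spread between animals of this trial.

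No identifier matched the RefSeq gene table supplied (ARS-UCD2.0), so gene lists, markers and promoter motifs set in the design were not used; the names of the 5 mitochondrially encoded genes come from the study. Genes named are the 2 members with the smallest p in each direction for RFI in heifers, RFI in bulls, and bulls against heifers. For the interaction only the member with the smallest p is named, and for RFI over both sexes none. Beside them stand members that lead in level, spread or co-variation, chosen after their values were seen. No columns of the authors' own comparisons were used.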

Additional observations from a re-analysis of the deposited data

Results flagged for a closer look

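Within groups of 4 or 5 animals, the gap of an extreme animal to its nearest neighbour was set against Dixon's 95% critical value. Chance exceeds that value in about 1 in 20 groups. The values checked were the members' share of reads, the members with the smallest p in each comparison, ENSBTAG00000006907 and ENSBTAG00000006733. Among these, 6 gaps exceeded it, and other reported values were not checked. Among the 5 high RFI heifers, 2628 was set apart at 330 CPM for ENSBTAG00000005259, 209 CPM for ENSBTAG00000007147, 185 CPM for ENSBTAG00000007211 and 1920 CPM for ENSBTAG00000031217. Among the 5 low RFI heifers, 2632 was set apart at 237 CPM for ENSBTAG00000011869. Among the 4 high RFI bulls, 2641 was set apart by its 16.5% of reads in the 207 genes. Over all members, 58 (28.0%) had such a gap among high RFI heifers, beside 18.5% of all genes, and 2628 was the animal set apart in 55 of the 58. Among low RFI heifers there were 11 members (5.31%, beside 5.64% of all genes) and among high RFI bulls 14 (6.76%, beside 5.49%).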

How the results depend on the processing

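No member passed the threshold in any of the 5 comparisons under any alternative run: other scalings, pseudocounts and filters, an adjusted p of 0.05, tag style as a covariate, or without each animal in turn (0 in each). The count models set as alternatives were not run. The files hold CPM, and although the muscle values lay near whole multiples of a single read, they were not turned back into counts. No paired analysis was possible because replicate numbers follow accession order and high and low RFI animals are different animals. Genes called between bulls and heifers, 7 in all, varied from 4 to 13 when 1 animal was left out (13 without heifer 2628) and were 4 on deposited CPM.

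On deposited CPM the members' median log2 difference turned to -0.12 in heifers, -0.020 in bulls, -0.11 in both sexes and 0.14 in the interaction. In bulls it was also -0.0043 with median-of-ratios scaling and -0.070 to 0.094 without each animal (-0.070, -0.028 and -0.064 where it turned), so no direction is given for bulls. The median pairwise r of 0.16 in heifers ran from 0.13 to 0.20 without each animal, and was 0.044 over bulls. Mean read share in bulls rose to 21.5% outside the 5 mitochondrially encoded genes. The following were chosen after seeing the data. At r of at least 0.95 the largest set held 5 genes, all among the 13. At 0.85 the largest held 31 genes, none of the 13, which then lay in a set of 20. Without bull 2641 the largest held 9 genes, 8 of them among the 13. With 2 low RFI bulls, differences in bulls have little precision.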
